A study of Mus musculus with 7 samples.

Results

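The D cyclins, their partner kinases CDK4 and CDK6 and the CDK inhibitors of the CIP/KIP and INK4 families were followed in C2C12, an established line of mouse myoblasts, which divide as muscle precursors until differentiation is induced. The genes were chosen by name and looked up among the row names of the deposited table. Of 10 names, 9 had a row, among 13376 rows in all, and Ccnd2 was not analysed here. All 9 passed the filter of a mean of 1 FPKM or more and were tested.

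Proliferating cells were treated with siRNA against the long noncoding RNA lnc-31 (2 libraries) or with scrambled siRNA (2 libraries), and no other treatment or allele separated these groups, per the labels. Levels are FPKM, fragments per kilobase of transcript with mapped fragments of the library scaled out, so levels of different genes can be set side by side. A second experiment recovered RNA with biotinylated antisense probes against lnc-31, or against bacterial lacZ as background, with 1 library per probe set, deposited as peak lists. Whether the 2 libraries of each group are separate cultures is not stated in the labels, so the p-values rest on a spread that may be technical.

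D cyclins bind CDK4 and CDK6 in G1, and the active kinases phosphorylate the retinoblastoma family of pocket proteins, which releases E2F transcription factors to drive genes of S phase. INK4 proteins (Cdkn2c and Cdkn2d here) bind CDK4 and CDK6 and block them. CIP/KIP proteins (Cdkn1a, Cdkn1b and Cdkn1c) inhibit the CDK2 complexes of cyclins E and A and can also bind cyclin D complexes. In muscle, p21 (Cdkn1a) and p57 (Cdkn1c) are known for their part in the cell cycle exit of differentiating myoblasts, and cyclin D3 for staying on as cells leave the cycle.

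RefSeq promoter windows (build GRCm38.p6, which shares coordinates with mm10) were matched by symbol for 7 of the 9 genes, with 10 windows of 250 bases before an annotated start. No window was matched for Ccnd1 or Cdkn1c. Windows are shown for the other called inhibitors (but for the downstream Cdkn2c window). The Cdk4 window is shown too, as Cdk4 was the most abundant of the genes. All are given 5′ to 3′ on the gene's strand. Capitals mark the p53 half-site RRRCWWGYYY in the upstream Cdkn1a window and the E-box CANNTG in the Cdk4 window. In the others they mark the GC box GGGCGG, on either strand. In these letters R is A or G, W is A or T, Y is C or T and N is any base.
Cdkn1a, upstream start, chr17:29090729-29090978, plus strand: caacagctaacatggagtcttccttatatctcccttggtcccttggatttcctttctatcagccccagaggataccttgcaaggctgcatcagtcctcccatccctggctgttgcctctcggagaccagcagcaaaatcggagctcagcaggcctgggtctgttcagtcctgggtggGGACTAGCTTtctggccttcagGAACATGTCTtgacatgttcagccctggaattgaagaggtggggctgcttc
Cdkn1a, downstream start, chr17:29093519-29093768, plus strand: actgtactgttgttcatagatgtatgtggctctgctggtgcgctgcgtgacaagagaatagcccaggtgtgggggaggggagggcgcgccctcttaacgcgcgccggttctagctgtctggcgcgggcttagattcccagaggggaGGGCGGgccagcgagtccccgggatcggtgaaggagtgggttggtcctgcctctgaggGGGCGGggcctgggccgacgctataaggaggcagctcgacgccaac
Cdkn2c, upstream start, chr4:109666757-109667006, minus strand: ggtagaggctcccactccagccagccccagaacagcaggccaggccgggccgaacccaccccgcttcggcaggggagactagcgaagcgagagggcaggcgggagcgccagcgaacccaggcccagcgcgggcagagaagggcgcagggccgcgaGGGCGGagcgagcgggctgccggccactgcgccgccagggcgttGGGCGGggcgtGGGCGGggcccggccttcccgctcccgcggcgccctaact
Cdkn2d, chr9:21291210-21291459, minus strand: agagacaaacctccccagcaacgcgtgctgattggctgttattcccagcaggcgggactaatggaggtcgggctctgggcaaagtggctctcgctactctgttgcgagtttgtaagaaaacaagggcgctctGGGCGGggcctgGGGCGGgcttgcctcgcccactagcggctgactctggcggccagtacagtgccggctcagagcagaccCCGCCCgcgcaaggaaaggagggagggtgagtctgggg
Cdk4, chr10:127063285-127063534, plus strand: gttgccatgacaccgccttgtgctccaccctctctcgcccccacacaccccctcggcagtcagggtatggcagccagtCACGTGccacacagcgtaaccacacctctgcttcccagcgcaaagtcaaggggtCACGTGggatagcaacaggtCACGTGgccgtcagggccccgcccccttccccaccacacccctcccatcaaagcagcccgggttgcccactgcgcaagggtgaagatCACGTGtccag

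The upstream Cdkn1a window held 2 p53 half-sites, beginning 73 and 51 bases before its start. They lay 2863 and 2841 bases before the downstream start. Cdkn1a is the textbook target of the tumour suppressor p53. The half-site was searched by name with no mismatch, and 7.13% of all 32851 promoter windows of this length held it. Full p53 sites were not searched. The Cdkn2d window held 1 such half-site too, beginning 102 bases before its start. GC boxes stood in 7 of the 10 windows, against 32.7% of all windows, with 3 each in the Cdkn2c and Cdkn2d windows shown. The Cdk4 window held 4 E-boxes, each in the form CACGTG, the sequence that MYC with its partner MAX is known to bind. That form was found in 2 of the 10 windows, against 6.02% of all windows. E-boxes of any form were found in 3 of the 10, against 66.2% of all windows. Neither the E2F sequences TTTCCCGC and TTTGGCGC (0.895% and 0.417% of all windows) nor the cyclic AMP element TGACGTCA (1.55%), on either strand, was found in any of the 10 windows. These matches are a description of the letters in the windows, and none was tested for binding.

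The libraries were alike in the middle of the scale, with a median of 13.9 to 14.4 FPKM over tested rows. Library lnc-31 siRNA 1 stood apart on the first principal component (41.4% of the variance). Its score was 39.1, against -16.3 to -10.4 in the other libraries. The component was taken on unscaled log2(FPKM + 1), so a few extreme rows can weigh much in it. Across rows, the Spearman correlation was 0.991 between the lnc-31 siRNA libraries and 0.993 between the scrambled siRNA libraries. The row mt-Nd2 stood at 395110 FPKM in scrambled siRNA 2 and between 2876 and 3401 in the others. Gm27483 stood at 315887 FPKM in scrambled siRNA 2 and at 0 in the others. Summed FPKM ran from 1.52e+06 in scrambled siRNA 1 to 2.47e+06 in scrambled siRNA 2. Values with 1 library left out are therefore given for each of the 9 genes, and for lists where they move a count or median by over 1.5 times. The row that names Mir31, the microRNA hosted at the lnc-31 locus, was at 12.1 and 14.1 FPKM in libraries labelled lnc-31 siRNA, against 13.4 and 15.6 with scrambled siRNA (log2 fold change -0.14, limma adjusted p = 0.38). This row therefore does not show that the target was lowered, and directions are those of the libraries so labelled. As checks of the cell type, Myod1 (mean 62.3 FPKM with lnc-31 siRNA and 48.3 FPKM with scrambled siRNA), Des, Cdh15 and Myf5 were present. Myf6, at means of 0.25 FPKM with lnc-31 siRNA and 0.32 FPKM with scrambled siRNA, was below the filter of 1 FPKM. Pax7 had no row. Of 24 markers of fibroblasts, osteoblasts, fat, neurons, epithelium, endothelium and blood, 15 had no row, among them Ptprc, Pecam1, Epcam and Adipoq. The other 9 had a row, among them Pdgfrb, Dcn, Runx2, Map2, Tubb3 and Pparg. Means with lnc-31 siRNA and with scrambled siRNA were 46.4 and 40.3 FPKM for Pdgfrb and 16.3 and 17.0 FPKM for Runx2.

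By limma, with p-values adjusted over all 11500 tested rows at 0.05, 2 of the 9 genes were higher in libraries labelled lnc-31 siRNA (Cdkn1a and Cdkn1c) and 3 were lower (Ccnd1, Cdkn2c and Cdkn2d). Over all tested rows 12.4% were called, 5.64% higher and 6.78% lower. Ccnd3, Cdk4, Cdk6 and Cdkn1b did not pass. The groups did not overlap for 7 of the 9 genes, 3 higher and 4 lower, against 60.2% of all tested rows (28.5% higher, 31.7% lower), so a lack of overlap says little by itself. The median log2 fold change of the 9 genes was -0.08, and that of all tested rows -0.01. With 1 library left out in turn, Ccnd1 and Cdkn1c were called in each of the 4 fits and the calls of the other 3 were not, as given for each gene.

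**Figure D1:**
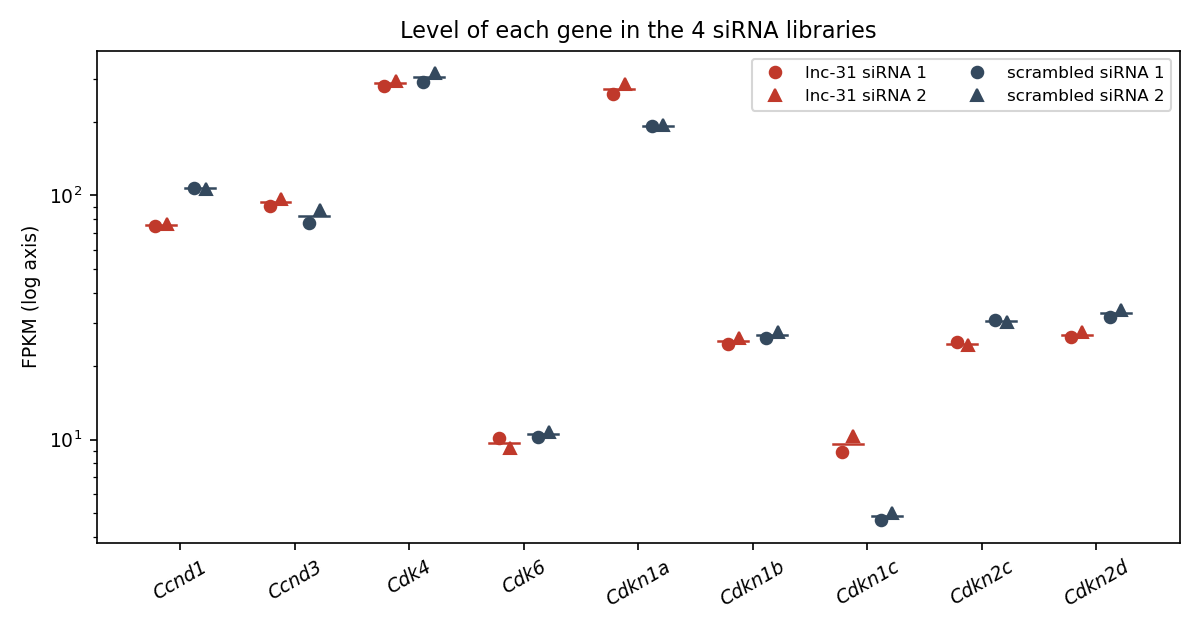
FPKM (log axis) of the 9 genes in the 4 siRNA libraries, with points for single libraries and a line at each group's mean of 2 libraries. Ccnd1 was near 76 FPKM in libraries labelled lnc-31 siRNA, below both scrambled siRNA libraries at 107, and Cdkn1a and Cdkn1c were above theirs.

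Among D cyclins, cyclin D1 fell and cyclin D3 did not pass the test. Ccnd1 (chromosome 7, 144929931 to 144939831, mm10), the cyclin that growth factors induce, was at 75.3 and 76.2 FPKM in libraries labelled lnc-31 siRNA, against 107.5 and 106.7 FPKM in scrambled siRNA libraries. The 2 libraries of each group lay within 1 FPKM of each other and the groups were far apart. The means were 75.7 ± 0.676 FPKM with lnc-31 siRNA and 107.1 ± 0.558 FPKM with scrambled siRNA (SD, n = 2 each), a ratio of 0.707. The log2 fold change on the log2(FPKM + 1) scale was -0.49 (SE 0.038, adjusted p = 0.0056), the 41st smallest p of all tested rows. It ranged from -0.50 to -0.49 with 1 library left out, with adjusted p between 0.022 and 0.036.

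Ccnd3 (chromosome 17, 47505051 to 47599689) was at 90.2 and 97.2 FPKM in libraries labelled lnc-31 siRNA, against 77.4 and 86.9 FPKM with scrambled siRNA. All values with lnc-31 siRNA were above all values with scrambled siRNA, but by less than the spread within the scrambled group. The difference did not pass the test (log2 fold change 0.19, 95% interval 0.02 to 0.36, adjusted p = 0.14). It was 0.11 without scrambled siRNA 1 and 0.27 without scrambled siRNA 2.

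The order of these cyclins therefore differed between the groups. Ccnd3 stood above Ccnd1 in both libraries labelled lnc-31 siRNA, and below it in both scrambled siRNA libraries. Ccnd1 made up 45.5% and 44.0% of the summed FPKM of Ccnd1 and Ccnd3 with lnc-31 siRNA, against 58.1% and 55.1% with scrambled siRNA. The mean share was 44.7% ± 1.08 with lnc-31 siRNA and 56.6% ± 2.14 with scrambled siRNA (SD, n = 2 each), a difference of -11.9 percentage points, which exceeded the spread within either group. The summed level was 165.4 and 173.4 FPKM in libraries labelled lnc-31 siRNA and 184.9 and 193.6 FPKM in scrambled siRNA libraries. The share was not tested, and an exact two-sided permutation test of 2 against 2 libraries cannot give a p below 0.333.

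The kinases did not pass. Cdk4 (chromosome 10, 127063535 to 127067288), the catalytic partner of the D cyclins, was the most abundant of the 9 genes and above 97.4% of tested rows by its mean. It was at 280.4 and 295.6 FPKM with lnc-31 siRNA, against 292.9 and 317.3 FPKM with scrambled siRNA, and the groups overlapped. Its log2 fold change was -0.08 (95% interval -0.22 to 0.06, adjusted p = 0.38), and -0.14 to -0.02 with 1 library left out. Cdk6 (chromosome 5, 3341004 to 3531008), the second kinase of the D cyclins, was at 10.2 and 9.25 FPKM with lnc-31 siRNA, against 10.3 and 10.8 FPKM with scrambled siRNA (log2 fold change -0.10, 95% interval -0.27 to 0.06, adjusted p = 0.35), and its log2 fold change was -0.17 to -0.04 with 1 library left out. Cdk4 made up 96.5% to 97.0% of the summed FPKM of the pair across the 4 libraries. Falls of the size seen for Ccnd1 lie outside both intervals.

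Of the CIP/KIP inhibitors, p21 and p57 rose and p27 did not pass. Cdkn1a (chromosome 17, 29090979 to 29100722), whose promoter windows are shown above, was at 260.4 and 286.8 FPKM in libraries labelled lnc-31 siRNA, against 192.3 and 194.5 FPKM with scrambled siRNA. The scrambled libraries were close together and both lnc-31 siRNA libraries were higher, lnc-31 siRNA 2 most. Means were 273.6 ± 18.7 FPKM with lnc-31 siRNA and 193.4 ± 1.57 FPKM with scrambled siRNA (SD, n = 2 each), a ratio of 1.41 and a log2 fold change of 0.50 (SE 0.057, adjusted p = 0.0098). Leaving out scrambled siRNA 1 (adjusted p = 0.063) or scrambled siRNA 2 (0.060) ended the call, at log2 fold changes of 0.49 and 0.50, and it held without lnc-31 siRNA 1 (0.018) or 2 (0.027).

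Cdkn1c (chromosome 7, 143458339 to 143461059), an imprinted gene that encodes p57, had the largest fold among the 9. It was at 8.86 and 10.4 FPKM in libraries labelled lnc-31 siRNA, against 4.67 and 5.01 FPKM with scrambled siRNA, with the higher lnc-31 siRNA value again in library 2. The ratio of means was 1.98, and the log2 fold change 0.86 (SE 0.087, adjusted p = 0.0080) was larger in size than that of 99.3% of tested rows. It stayed between 0.76 and 0.96 with 1 library left out, with adjusted p from 0.018 to 0.043. Cdkn1c was the least abundant of the 9 in the scrambled siRNA libraries, so adding 1 FPKM before the logarithm lowers its fold most.

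Cdkn1b (chromosome 6, 134920401 to 134925525), which encodes p27, was at 24.5 and 26.2 FPKM with lnc-31 siRNA, against 26.0 and 27.7 FPKM with scrambled siRNA. The groups overlapped, and the log2 fold change was -0.08 (95% interval -0.22 to 0.06, adjusted p = 0.38), and -0.12 to -0.04 with 1 library left out. Summed, the CIP/KIP genes stood at 293.8 and 323.4 FPKM in libraries labelled lnc-31 siRNA, against 223.0 and 227.2 FPKM with scrambled siRNA. Cdkn1a was 88.6% and 88.7% of that sum with lnc-31 siRNA, against 86.2% and 85.6% with scrambled siRNA. Cdkn1c was 3.02% and 3.20% of it with lnc-31 siRNA, against 2.09% and 2.21% with scrambled siRNA. The ratio of Cdkn1a to Ccnd1 was 3.46 and 3.76 with lnc-31 siRNA, against 1.79 and 1.82 with scrambled siRNA, so p21 message was above cyclin D1 message in every library.

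The INK4 inhibitors moved the other way, and both fell. Cdkn2c (chromosome 4, 109660876 to 109666756), which encodes p18, was at 25.1 and 24.3 FPKM in libraries labelled lnc-31 siRNA, against 30.97 and 30.23 FPKM with scrambled siRNA. Its log2 fold change was -0.30 (SE 0.044, adjusted p = 0.017). The call was lost with any 1 library left out, with adjusted p of 0.053 and 0.071 without lnc-31 siRNA 1 and 2 and 0.088 and 0.076 without scrambled siRNA 1 and 2, while the log2 fold change stayed between -0.32 and -0.28.

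Cdkn2d (chromosome 9, 21288459 to 21291421), which encodes p19 of the INK4 family, was at 26.3 and 27.5 FPKM with lnc-31 siRNA, against 31.9 and 34.0 FPKM with scrambled siRNA. Its log2 fold change was -0.29 (SE 0.052, adjusted p = 0.028). This call too was lost with any 1 library left out (adjusted p = 0.099 and 0.069 without lnc-31 siRNA 1 and 2, 0.075 and 0.12 without scrambled siRNA 1 and 2), at log2 fold changes from -0.33 to -0.24, and with a constant prior variance (0.051). The pair summed to 51.3 and 51.8 FPKM with lnc-31 siRNA, against 62.9 and 64.2 FPKM with scrambled siRNA. The windows shown for these genes were 77.2% and 63.6% G or C, and the downstream Cdkn2c window, which held no GC box, 42.8%, against a median of 52.4% over all windows.

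**Figure D2:**
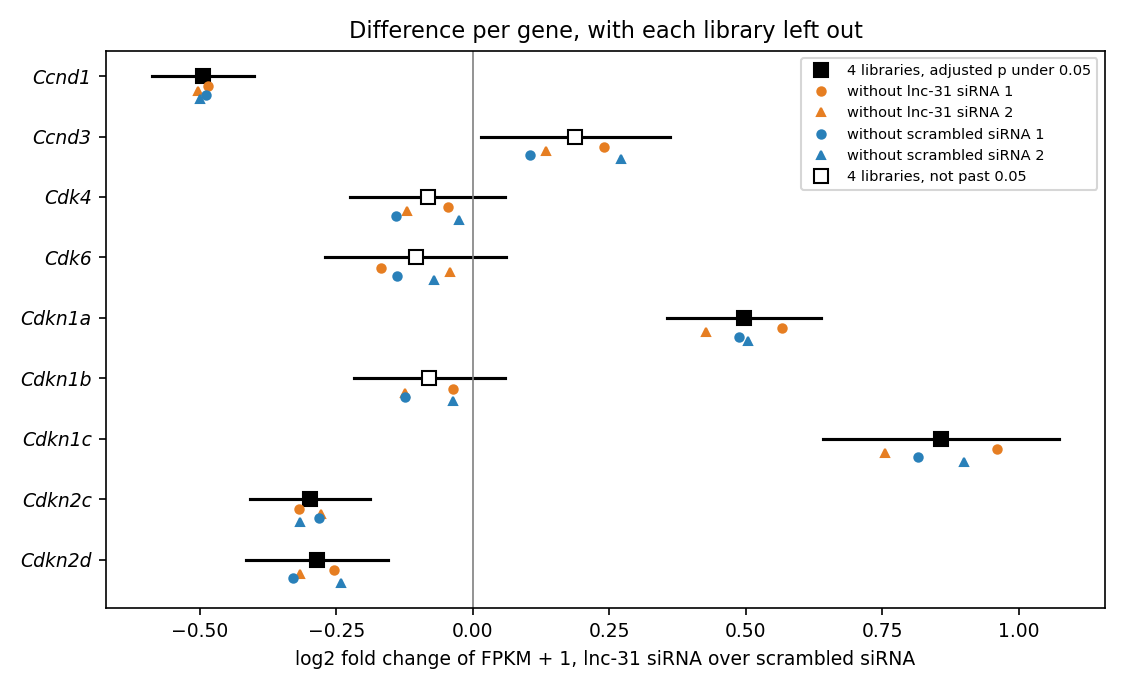
Log2 fold change of FPKM + 1, lnc-31 siRNA over scrambled siRNA, for each gene (squares, with 95% intervals from limma) and with each library left out (small points below). Directions were kept for all 9 genes in these 4 fits, which could not be otherwise for the 7 whose groups did not overlap. The values for Cdkn1c ranged from 0.76 to 0.96.

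**Figure D3:**
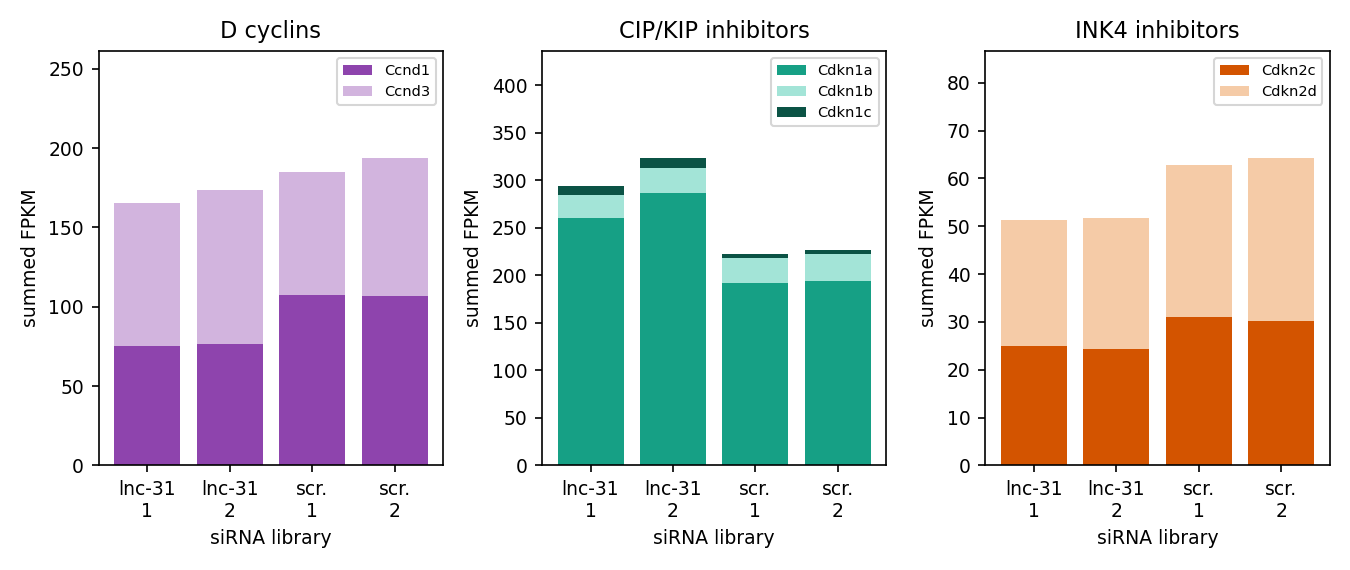
Stacked FPKM of the D cyclins Ccnd1 and Ccnd3, the CIP/KIP inhibitors and the INK4 inhibitors in each library. The lnc-31 siRNA libraries stand left of the scrambled siRNA libraries. The CIP/KIP sum was 293.8 and 323.4 FPKM with lnc-31 siRNA, above 223.0 and 227.2 with scrambled siRNA, and the INK4 sum was lower.

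By level, the genes stood in the same broad tiers in both groups, with Cdk4 and Cdkn1a on top, then the D cyclins, then Cdkn2d, Cdkn2c and Cdkn1b, and Cdk6 and Cdkn1c at the low end. In libraries labelled lnc-31 siRNA, the ranges of Cdk4 and Cdkn1a, of Cdkn1b and Cdkn2c, and of Cdk6 and Cdkn1c overlapped, so these neighbours could not be ordered. In scrambled siRNA libraries no neighbouring ranges overlapped.

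The rows most like Ccnd1 by the Euclidean distance of centred log2(FPKM + 1) over the 4 libraries were Tceb1 (distance 0.017), Mtap (0.026), RP24-325N3.1, Rer1 and Zfp672 (up to 0.031). Mtap, an enzyme of methionine salvage, was at 88.6 and 87.8 FPKM with lnc-31 siRNA, against 126.3 and 123.7 FPKM with scrambled siRNA. The rows most like Cdkn1c were the fast troponin gene Tnnc2 (distance 0.015), the stress gene Ddit4 (0.036), Lgals3bp, the stress factor Atf5 and Arpp21 (up to 0.10). Tnnc2 was at 25.6 and 29.3 FPKM with lnc-31 siRNA, against 14.3 and 15.2 FPKM with scrambled siRNA. With 4 libraries many rows share such a profile, and this is a description.

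Downstream of the D cyclin kinases, the genes listed here as E2F targets, which include mitotic genes, were lower. Which factor drives each of them was not tested. Of 18 such genes, 15 fell and none rose. Their median log2 fold change was -0.27, and none was higher at an unadjusted p under 0.05. For this and the lists below, 5.64% of all tested rows were called higher and 6.78% lower. These lists were chosen with earlier results of these data known. Cdc6, which licenses replication origins, was at 17.7 and 18.1 FPKM in libraries labelled lnc-31 siRNA, against 24.6 and 24.5 FPKM with scrambled siRNA (log2 fold change -0.43, adjusted p = 0.0080). The mitotic kinase Aurka fell by 0.32 on the log2 scale (adjusted p = 0.011), and the replicative helicase subunits Mcm5 and Mcm4 by 0.40 and 0.32 (0.013 each). Leaving out either lnc-31 siRNA library left 4 of the 18 called lower, and leaving out either scrambled siRNA library left 1, at medians of -0.28 to -0.26. A constant prior variance left 11 called lower.

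Of 13 pocket protein and E2F genes, 4 fell and none was called higher (2 were higher at an unadjusted p under 0.05), with a median of -0.07. That median was -0.13 without scrambled siRNA 1, -0.01 with scrambled siRNA 2 left out and -0.04 with lnc-31 siRNA 1 left out. Only Tfdp1 and E2f3 were still called without scrambled siRNA 1, scrambled siRNA 2 or lnc-31 siRNA 2. Tfdp1, a partner of several E2F proteins, was at 72.0 and 76.3 FPKM with lnc-31 siRNA, against 109.5 and 109.1 FPKM with scrambled siRNA. Its log2 fold change was -0.55 (adjusted p = 0.0056). The activator E2f3 was at 13.4 and 12.6 FPKM with lnc-31 siRNA, against 20.2 and 22.4 FPKM with scrambled siRNA (log2 fold change -0.67, adjusted p = 0.0079). The calls of Tfdp1 and E2f3 held with each library left out. The repressors E2f7 (log2 fold change -0.40, adjusted p = 0.012) and E2f8 (-0.25, 0.030) fell as well, but E2f8 was called in none of the fits with 1 library left out (adjusted p from 0.069 to 0.13) nor with a constant prior variance (0.053), and E2f7 only without lnc-31 siRNA 1. Rb1 itself, named after its values were seen, was at 1.68 and 2.61 FPKM with lnc-31 siRNA, against 1.91 and 0.502 FPKM with scrambled siRNA, which overlapped and did not pass. E2f2 was called higher under quantile normalization (0.24, adjusted p = 0.038) and under median of ratios scaling (0.24, 0.036).

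Among 9 genes of cyclins E and A, CDK2 and CDK activation, 4 fell and none rose (none at an unadjusted p under 0.05 either), with a median of -0.18. Ccne1, the cyclin that follows the D cyclins, was at 33.2 and 34.3 FPKM with lnc-31 siRNA, against 41.2 FPKM in each scrambled siRNA library (log2 fold change -0.28, adjusted p = 0.017). Mnat1, a subunit of the CDK-activating kinase, fell by 0.51 on the log2 scale (adjusted p = 0.023), Ccna2 by 0.21 (0.045) and Ccne2 by 0.20 (0.049). Without lnc-31 siRNA 2, 1 of the 9 was called, which was Mnat1, and without any other library none was. With a constant prior variance Ccna2 and Ccne2 lost their calls (adjusted p = 0.084 and 0.086), as they did with no filter (0.051 and 0.057).

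Of 14 other genes of CDKs, CDK inhibitors, a CDK activator and further cyclins, 2 fell and none rose (none at an unadjusted p under 0.05 either). Their median log2 fold change was -0.03, which was -0.06 without scrambled siRNA 1 and -0.00011 without scrambled siRNA 2. The genes that fell were Cdkn3, a phosphatase that acts on CDKs (log2 fold change -0.31, adjusted p = 0.021), and the cyclin gene Ccng1. Ccng1, also a textbook target of p53, was at 154.5 and 153.8 FPKM with lnc-31 siRNA, against 177.6 and 176.1 FPKM with scrambled siRNA (-0.20, 0.031). Neither was called with any 1 library left out (adjusted p from 0.051 to 0.15), nor was Ccng1 with a constant prior variance (0.067). Cdk1 and Cdk8, next by p, did not pass (adjusted p = 0.16 and 0.20), although Cdk1 was called lower under quantile normalization (-0.16, 0.040). Cdkn2a and Cdkn2b were not analysed here.

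Genes of the turnover of D cyclins and CDK inhibitors gave no call by limma in 15, with 1 higher and 2 lower at an unadjusted p under 0.05 and a median of -0.01, which lay between -0.03 and -0.02 with any 1 library left out. The smallest p were those of Cks1b, a cofactor in p27 degradation (log2 fold change -0.15, adjusted p = 0.10), the ligase scaffold Cul4a (0.13, 0.12), Fbxo4 (-0.24, 0.13) and Dtl (-0.13, 0.18). Cul4a was called higher under quantile normalization (adjusted p = 0.040) and under median of ratios scaling (0.046).

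**Figure D4:**
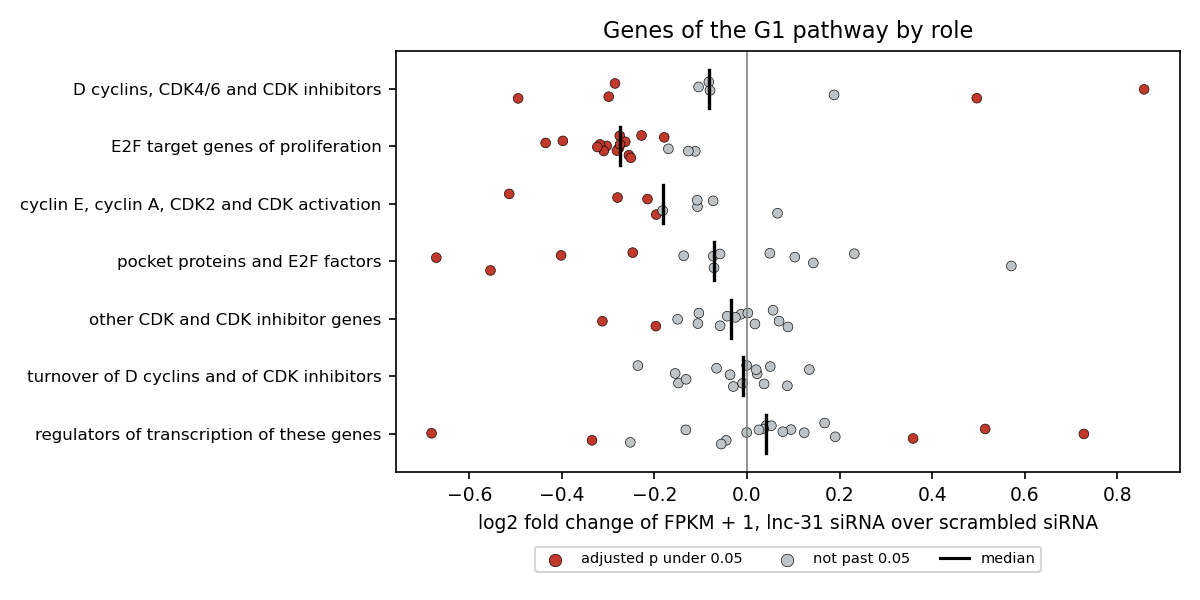
Log2 fold change of FPKM + 1, lnc-31 siRNA over scrambled siRNA, for each tested gene of the G1 pathway by role, with a bar at each median and red for an adjusted p under 0.05. The E2F target genes all lie below 0 with a median of -0.27, while the turnover genes lie around 0.

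Of 19 tested regulators of transcription of these genes, 3 rose and 2 fell, with a median of 0.04, which was 0.07 with scrambled siRNA 1 left out and 0.03 with lnc-31 siRNA 2 left out. Myc, known to raise Cdk4 and to hold down Cdkn1a, was at 26.0 and 27.2 FPKM in libraries labelled lnc-31 siRNA, against 34.7 and 32.8 FPKM with scrambled siRNA (log2 fold change -0.33, adjusted p = 0.018). Its call was lost with any 1 library left out (adjusted p from 0.0502 to 0.088). Klf4, a factor known to induce Cdkn1a, was at 21.9 and 22.4 FPKM with lnc-31 siRNA, against 14.5 and 15.9 FPKM with scrambled siRNA (log2 fold change 0.51, adjusted p = 0.0094). Srf, the serum response factor, was at 9.73 and 10.8 FPKM with lnc-31 siRNA, against 16.7 and 17.4 FPKM with scrambled siRNA (-0.68, 0.0075). The muscle factor Myog was at 106.9 and 108.1 FPKM with lnc-31 siRNA, against 58.0 and 71.7 FPKM with scrambled siRNA (0.73, 0.013). Myod1 was the third that rose (0.36, 0.019), and its call held without lnc-31 siRNA 1 (adjusted p = 0.032) but not without any other library (0.061 to 0.095). Stat3, named after its values were seen, did not pass (0.19, adjusted p = 0.055) but was called higher under quantile normalization and under median of ratios scaling (0.20, adjusted p = 0.041 each) and with the filter at 5 FPKM (0.19, 0.049). The calls of Klf4, Srf and Myog held with each library left out. Mycn was not analysed here.

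Other genes were named after their values were seen. For Trp53, which encodes p53, the log2 fold change was 0.04 (adjusted p = 0.56). Mdm2, the ligase that p53 induces, was at 114.0 and 130.9 FPKM with lnc-31 siRNA, against 149.2 and 142.3 FPKM with scrambled siRNA, and did not pass (-0.25, 0.080), but was called lower without lnc-31 siRNA 2 (-0.35, 0.046). Cdkn1a and Ccng1, both known p53 targets, were called in opposite directions. Neither call held in every fit with 1 library left out, and p53 activity was not tested.

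Markers of differentiating muscle were higher in the same libraries as Cdkn1a and Cdkn1c. All 7 rose (median log2 fold change 0.73), also with each library left out, and their summed level was 367.9 to 381.7 FPKM in libraries labelled lnc-31 siRNA, against 202.9 to 230.6 FPKM with scrambled siRNA. Fibroblast markers with a row (3 of 5) summed to 63.3 to 64.1 FPKM with lnc-31 siRNA, against 50.8 to 51.9 FPKM with scrambled siRNA, with Dcn and Pdgfrb called higher, Pdgfrb not with any 1 library left out or a constant prior variance, and no row for Thy1 and Lum. In bulk RNA, more cells of a kind and more RNA per cell cannot be told apart, and the part of either marker group in the values of Cdkn1a, Cdkn1c and Ccnd1 was not tested.

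In the pull-down, no lnc-31 probe peak and no lacZ probe peak overlapped the span of any of the 9 genes by 1 base or more. Over 12321 genes of the siRNA table with a RefSeq span, 1.78% held at least 1 lnc-31 probe peak and 1.68% at least 1 lacZ probe peak, so that 0 of 9 is close to the background. The lists had 596 and 476 peaks, with 1 library per probe set and no test. The read depth behind them is unknown, and peaks below the authors' threshold are not listed, so recovery of these messages below it was not measured.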

How the data were processed

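The 4 siRNA libraries were stranded mRNA libraries, per the labels' protocols. FPKM values were deposited by the authors, and the submitters' processing notes list (with no order or version) Cuffdiff, TopHat2, BWA, Bowtie2, Trimmomatic and CASAVA, and build mm10. For the peak lists these notes list Picard, TopHat2, Bowtie2, cutadapt, Trimmomatic and CASAVA, and mm10. Their peak caller was not given in the sources used. The last column of the deposited lists was read as a p-value from its range alone, and only an alternative uses it. The input library was not analysed here. Sample columns matching no label numbered 0.

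FPKM is not a count, so read depth is unknown, no counting interval is given and no count test was run. The 11500 of 13376 rows whose mean reached 1 FPKM were compared as log2(FPKM + 1) in limma (version 3.58.1, R version 4.3.3). The prior variance was trended, with 3.62 prior degrees of freedom, the tests were two-sided, and Benjamini-Hochberg adjustment ran over all tested rows at 0.05. Fold changes understate those of low genes. With 1 library left out the rows tested stayed the same and a lone library was assumed to vary like the other group. Peaks were set against RefSeq gene spans with a minimum overlap of 1 base. Promoter motifs were searched on both strands.

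The genes and lists were chosen with earlier results of these data known. All 9 genes are named, up to 4 genes per list by smallest p, and 5 rows by likeness to Ccnd1 and to Cdkn1c. Alternatives were each library left out, a block for the replicate number, a constant prior variance, median of ratios scaling, quantile normalization, a filter at 5 FPKM or none, pseudocounts of 0.5 and 0.1, and other peak rules.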

Additional observations from a re-analysis of the deposited data

How the results depend on the processing

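With 1 library left out, 260 to 491 of all tested rows were called, against 1429 with 4 libraries. In the same fits 1 or 2 of the 9 genes were called higher, against 2 with 4 libraries, and 1 was called lower in each, against 3 with 4 libraries. The difference in the share of Ccnd1 in the summed FPKM of Ccnd1 and Ccnd3 was -13.4 to -10.4 percentage points. Fewer samples enter these fits. Every direction was kept for the 9 genes under the 12 alternatives, but most of these could not have changed it. The block, the constant prior variance and both changes of filter leave each fold change as it is. For the 7 genes with separate groups, dropping a library or changing the pseudocount cannot turn the direction either. Quantile normalization and median of ratios scaling could have turned it for any of the 9. Ccnd1 and Cdkn1c kept their calls under all 12. Outside the fits with a library left out, the alternatives changed 2 calls of the 9, that of Cdkn2d given above and that of Ccnd3 under the block. Libraries of the 2 groups share replicate numbers, but nothing in the labels says what a number stands for, and the deviations of same-numbered libraries had a correlation of -0.094 across rows. With the number as a replicate block 1613 rows were called, and Ccnd3 was called higher (log2 fold change 0.19, adjusted p = 0.036), while the call of no other of the 9 changed. Among the listed genes the block added the calls of Cdk1 and Map2 and ended that of Bub1. No member held a lnc-31 probe peak with gene spans widened by 1000 bases on each side. The other peak rules only narrow the main one, which gave 0, so they could not differ. Quantile normalization and median of ratios scaling moved the median log2 fold change of all rows by 0.00060 and 0.0074. The number of reads is unknown, so what depth limits could not be set apart from the spread between 2 libraries.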
